A study of Mus musculus with 4 samples.

Results

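The genes described here encode 45 receptors for 5 neuromodulators in the mouse: 14 for serotonin, 14 for acetylcholine (5 muscarinic and 9 nicotinic), 8 for noradrenaline, 5 for dopamine and 4 for opioid peptides. They were taken by name from a list of receptor families, out of 21938 protein-coding genes. Chromatin accessibility was measured by single-nucleus ATAC-seq, in which a transposase cuts open DNA and the cut sites are counted per nucleus. Nuclei came from mice of genotype Dlx6aCre;Sun1/sfGFP at postnatal day 30, with 2 libraries from cortex and 2 from hippocampus, and no treatment is named. Dlx6aCre is a Cre driver of forebrain GABAergic neurons, and Sun1/sfGFP places a green fluorescent protein on the nuclear envelope of cells that carry Cre, so that GFP+ nuclei could be sorted. All 4 libraries shared this genotype, age and sort. A sorted nucleus only shows that its lineage once carried Cre.

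Serotonin, noradrenaline, dopamine, acetylcholine and opioid peptides change the excitability of neurons and the release of transmitter. Most of the receptors couple to G proteins. Gs-coupled receptors raise cyclic AMP, Gi-coupled receptors lower it and open potassium channels, and Gq-coupled receptors act through phospholipase C. The nicotinic receptors and the serotonin receptor of Htr3a and Htr3b are ion channels that open on binding. Cortical and hippocampal interneurons are commonly sorted by the markers Pvalb, Sst, Vip and Lamp5, and these types are known to carry different sets of receptors.

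The libraries held 2355 and 4191 nuclei from cortex and 5576 and 3184 from hippocampus, in replicate order, with 117290059, 32005984, 72384520 and 47934269 cut sites in peaks. The labels do not say whether the libraries came from separate or pooled animals. P-values between brain regions therefore measure the spread between these libraries, which may be technical. Tests between groups of nuclei inside libraries, given below, have library as a block. Their p-values measure how such differences vary across the same libraries, which may be technical too. Cortex replicate 1 was the deepest (a median of 47236 cut sites per nucleus, against 7352 to 14917 in the others). Between 11 and 47 barcodes were shared by each pair of libraries. All 8 pan-GABA markers had a peak in every library, with a summed level of 809 to 1279 CPM (the usual abbreviation for cut sites scaled to a common library total), while 8 excitatory markers summed to 40.0 to 68.7 CPM and 2 to 6 of them had no peak. Oligodendrocyte lineage markers summed to 210 to 280 CPM, of which Mbp alone gave 170 to 224 CPM. Astrocyte, microglia and endothelium markers summed to 230 to 252, 240 to 297 and 87.0 to 162 CPM. Cx3cr1 alone gave 165 to 207 CPM of the microglia sum, and Aldh1l1 alone 69.7 to 104 CPM of the astrocyte sum. In each library 2 to 4 of 8 microglia markers, 1 to 2 of 8 astrocyte markers and 0 to 3 of 7 endothelium markers had no cut sites in peaks. Peaks were called separately in each library and counts exist only inside them, so that a gene listed at 0 lacks cut sites in called peaks and is not shown to be closed.

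The value of a gene was the number of cut sites in peaks that touched the gene or the 2 kb before its start, divided by the library total and given in CPM. All 45 receptor genes had cut sites in cortex replicate 1 and hippocampus replicate 2, 44 in hippocampus replicate 1 and 35 in cortex replicate 2, the shallowest library. The gene start lay in a peak of every library for 17 of 45 receptor genes, among them 8 of 14 serotonin receptors but 2 of 9 nicotinic and 1 of 5 dopamine receptors, against 48.5% of all genes. Summed over all 45 the level was 1728 and 1199 CPM in cortex and 1513 and 1384 CPM in hippocampus. Per kb of window the receptor genes lay between percentile 23.0 (Htr2c) and percentile 97.6 (Chrm4) of all genes, with a median of 47.9. The noradrenaline receptors had a median percentile of 73.3, with 7 of 8 genes above the median gene, and the serotonin and muscarinic groups had medians of 39.7 and 39.3.

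**Figure D1:**
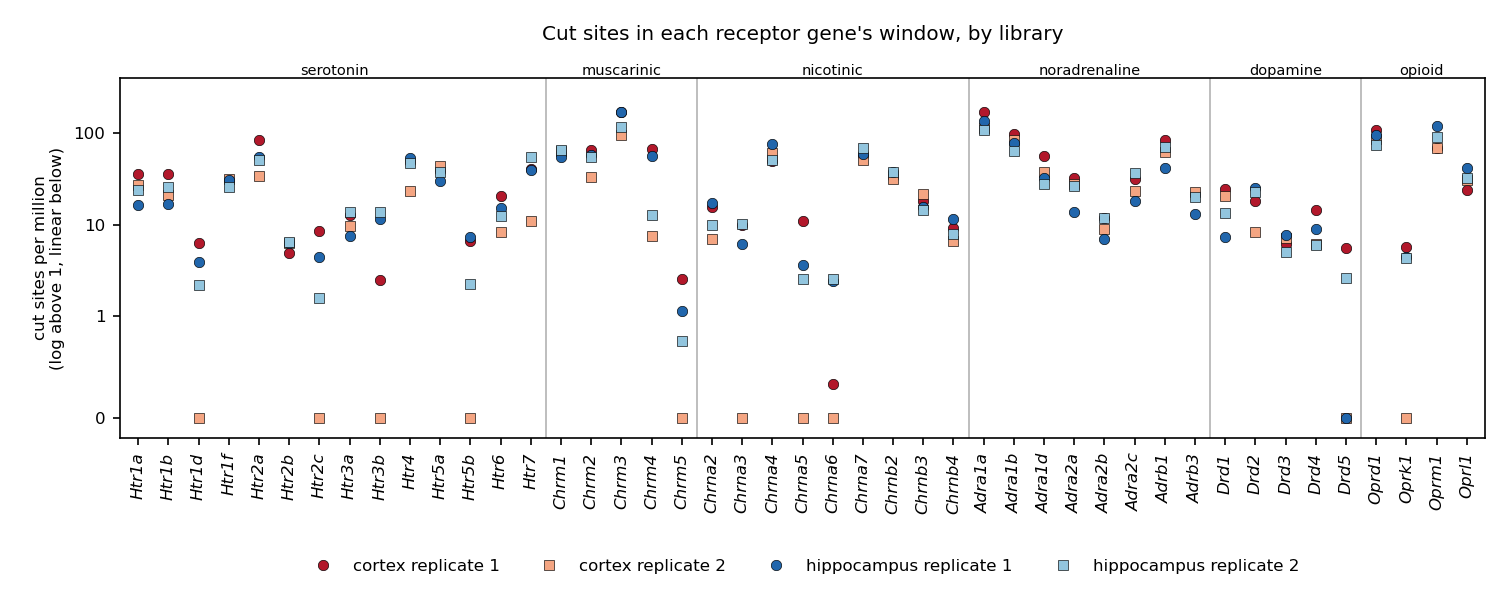
CPM in each receptor gene's window (log axis above 1, linear below), 1 point per library, ordered by transmitter. Points at 0 are mostly from cortex replicate 2, where 35 of 45 genes had cut sites.

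The 2 densest genes of each transmitter group, in CPM per kb of window, were the following, with muscarinic and nicotinic receptors taken apart. Htr1a, a Gi-coupled serotonin receptor, had 35.4 and 27.0 CPM in the cortex libraries and 16.6 and 24.0 CPM in the hippocampus libraries. Htr1b, a Gi-coupled receptor of axon terminals, had 36.1 and 21.2 CPM in cortex and 16.8 and 25.9 CPM in hippocampus. The 2 brain regions were separate for Htr1a and overlapped for Htr1b. Chrm1, a Gq-coupled muscarinic receptor, had 61.3 and 63.1 CPM in cortex and 54.7 and 65.2 CPM in hippocampus. Chrm4, a Gi-coupled muscarinic receptor, had 67.0 and 7.44 CPM in cortex and 56.2 and 12.7 CPM in hippocampus. The high and the low Chrm4 library in each brain region followed the length called as peaks, which was 7781, 373, 8445 and 1653 bp in the same order. Chrna4 and Chrnb2 encode the subunits of the most common nicotinic receptor of the brain, and Chrna4 had 50.1 and 60.2 CPM in cortex and 75.8 and 50.4 CPM in hippocampus. Chrnb2 had 32.9 and 31.5 CPM in cortex and 37.8 and 37.3 CPM in hippocampus, of which 31.5% to 44.4% lay in peaks shared with the window of another gene. Adra2c, a Gi-coupled noradrenaline receptor, had 31.4 and 23.2 CPM in cortex and 17.9 and 36.7 CPM in hippocampus. Adrb1, a Gs-coupled noradrenaline receptor, had 84.5 and 62.2 CPM in cortex and 41.5 and 71.0 CPM in hippocampus. Values of both overlapped between the brain regions. Of the dopamine receptors Drd1 was the densest, with values given with the comparison of brain regions, and Drd4, a Gi-coupled dopamine receptor and the next, had 14.2 and 6.09 CPM in cortex and 8.98 and 5.92 CPM in hippocampus. Oprl1, the nociceptin receptor, had 23.7 and 30.6 CPM in cortex and 41.9 and 32.0 CPM in hippocampus. Oprd1, the delta opioid receptor, had 109 and 86.3 CPM in cortex and 94.4 and 73.2 CPM in hippocampus.

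Cortex was then compared with hippocampus. None of the 45 receptor genes was called by edgeR at an adjusted p of 0.05 (0 of 45, where 20 of 16326 genes or 0.123% were called), and DESeq2 also called 0 of 45 (0.937% of all genes). An unadjusted p under 0.05 was reached by 3 of 45, against 3.07% of all genes. The called genes had changed by at least 1.17 on the log2 scale, while the receptor genes with a peak in every library differed by at most 1.12 and had a median SE of 0.35. With 2 libraries per brain region the count of 0 does not show that the receptor genes were alike. The values of the brain regions did not overlap for 15 of 45 receptor genes, and for 21.8% of all genes. The median log2 fold change of hippocampus over cortex was -0.06, and -0.10 over all genes. In summed nuclei, fewer open nuclei and less open chromatin per nucleus cannot be told apart.

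Htr7, a Gs-coupled serotonin receptor, had 40.8 and 10.8 CPM in cortex and 40.0 and 54.4 CPM in hippocampus. Its cortex libraries lay far apart, and the low value was that of the shallowest library. The log2 fold change was 0.86 ± 0.35 (SE, n = 2 against 2 libraries, edgeR adjusted p = 0.966, 0.00159 to 1 over the alternatives), and it ranged from 0.21 without cortex replicate 2 to 2.13 without cortex replicate 1. Drd1, the Gs-coupled D1 dopamine receptor, had 24.6 and 20.7 CPM in cortex and 7.38 and 13.5 CPM in hippocampus. Both hippocampus libraries were below both cortex libraries, with a log2 fold change of -1.12 ± 0.45 (edgeR adjusted p = 0.966, 0.158 to 1 over the alternatives) and a negative value in every alternative. Drd2, the Gi-coupled D2 dopamine receptor, had 18.1 and 8.25 CPM in cortex and 25.1 and 22.6 CPM in hippocampus (log2 fold change 0.85 ± 0.41). When regions with a peak of every library were counted alone, the Drd2 value was 0.35. In each direction the 3 genes with the smallest p are given, and the others were, among higher values, Htr3b (2.49 and 0 CPM in cortex, 11.6 and 13.7 CPM in hippocampus) and, among lower values, Adra1d (55.7 and 37.3, then 32.1 and 27.7 CPM) and Htr1a. By transmitter, 7 of 8 noradrenaline receptor genes had a lower value in hippocampus (median log2 fold change -0.37) and 7 of 9 nicotinic genes a higher one (median 0.22), none of them called. Over all genes the median was -0.10, and the share of all genes in each direction is not given. All 8 noradrenaline genes but only 7 of 9 nicotinic genes had a peak in every library. Some directions in the nicotinic group can thus rest on a missing peak.

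Without cortex replicate 1, 4 of 45 receptor genes were called higher in hippocampus, where 4.2% of all genes were. These were Htr7 (log2 fold change 2.13), Chrm4 (2.21), and Htr3b and Chrna3, which are both listed at 0 in cortex replicate 2. The Chrm4 values followed the length called as peaks, as given above. The fit without cortex replicate 1 assumes that the lone cortex library varies like the hippocampus libraries. Among marker lists, Adarb2 of the caudal eminence list (55.2 and 31.1 CPM in cortex, 168 and 78.7 CPM in hippocampus) was called higher in hippocampus, and Sox10 of the oligodendrocyte lineage was too (0 and 0 CPM in cortex, 30.9 and 14.5 CPM in hippocampus), and after removal of the 2.51% to 10.0% of nuclei that lean to this lineage 0 of 45 receptor genes were called, as before.

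Nuclei were next divided by the interneuron marker genes. A nucleus entered a gate when it had at least 2 cut sites in the window of Pvalb, Sst, Vip or Lamp5 and led in a scaled count. For this, its count was divided by the library's share of cut sites in that gene. The ratio had to be at least 3 times that of each of the other 3 markers, so raw counts need not lead by as much. The Pvalb gate held 589 and 336 nuclei in cortex and 612 and 347 in hippocampus, the Sst gate 357, 179, 216 and 113, and the Lamp5 gate 261, 109, 531 and 321. The Vip gate held 125 nuclei in cortex replicate 1 but 6, 0 and 0 in the others, so that a single sum of counts stands for it. The Vip window had 3.38 and 2.03 CPM in the cortex libraries and 0 and 0 CPM in the hippocampus libraries. No hippocampal nucleus could therefore enter the Vip gate, which does not show that Vip cells were absent. For the same reason the other gates were not screened against Vip in hippocampus. Cut sites were summed per gate and library into 13 sums, and each gate was tested against the mean of the other gates with library as a block. Of 7 tested markers of interneurons from the medial ganglionic eminence, which gives rise to Pvalb and Sst cells, 4 were higher in the Pvalb gate and 4 in the Sst gate, and 4 were lower in the Vip gate, while 1 (Sox5) was lower in the Sst gate and 1 (Satb1) in the Lamp5 gate. Of 8 markers of the caudal eminence, which gives rise to Vip cells, 6 were lower in the Pvalb gate and 4 in the Sst gate, and 4 were higher in the Vip gate and 1 in the Lamp5 gate. The marker calls of the Pvalb, Sst and Lamp5 gates were made against a mean that holds the single Vip sum. Marker counts without that sum are not given, so they do not establish the gates in each library. Of all genes, 4.31% were higher and 2.73% lower in the Pvalb gate, 5.17% and 5.03% in the Sst gate, 2.75% and 1.96% in the Vip gate, and 0.746% and 0.326% in the Lamp5 gate. The gates were less separate in cortex replicate 1 than elsewhere. There the Pvalb window had 22.8, 34.8 and 24.9 CPM in the Sst, Vip and Lamp5 gates, against 122 CPM in the Pvalb gate. Vip had 48.6 CPM in that Vip gate. In the other libraries the Pvalb window had 0.540 to 8.01 CPM in the Sst and Lamp5 gates. A gate is a set of nuclei with cut sites at a marker and was not checked by expression.

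In all, 23 of 45 receptor genes were called in at least 1 gate and 22 in none, while 16.5% of all genes were called in at least 1 gate. These were 31 calls, 8 of them in the Vip gate. In the other gates all 4 libraries had the direction of the call for 4 of 8 genes in the Pvalb gate, 9 of 13 in the Sst gate and 2 of 2 in the Lamp5 gate. Of the 31 calls, 13 were still made without the Vip gate and 5 without cortex replicate 1, the library that alone has the Vip gate. The 8 calls of the Vip gate could not be made in either alternative, and both change the mean that the other gates are set against. The 5 calls kept without cortex replicate 1 were Oprd1 and Chrm2 in the Pvalb gate, Htr7 in the Sst gate, and Oprd1 and Oprm1 in the Lamp5 gate. Without cortex replicate 2, hippocampus replicate 1 and hippocampus replicate 2, 30, 17 and 21 calls were still made. Oprd1 was the only receptor gene called in all 4 gates. Each gate was set against the mean of the others, so calls of the same gene in several gates are not independent.

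**Figure D2:**
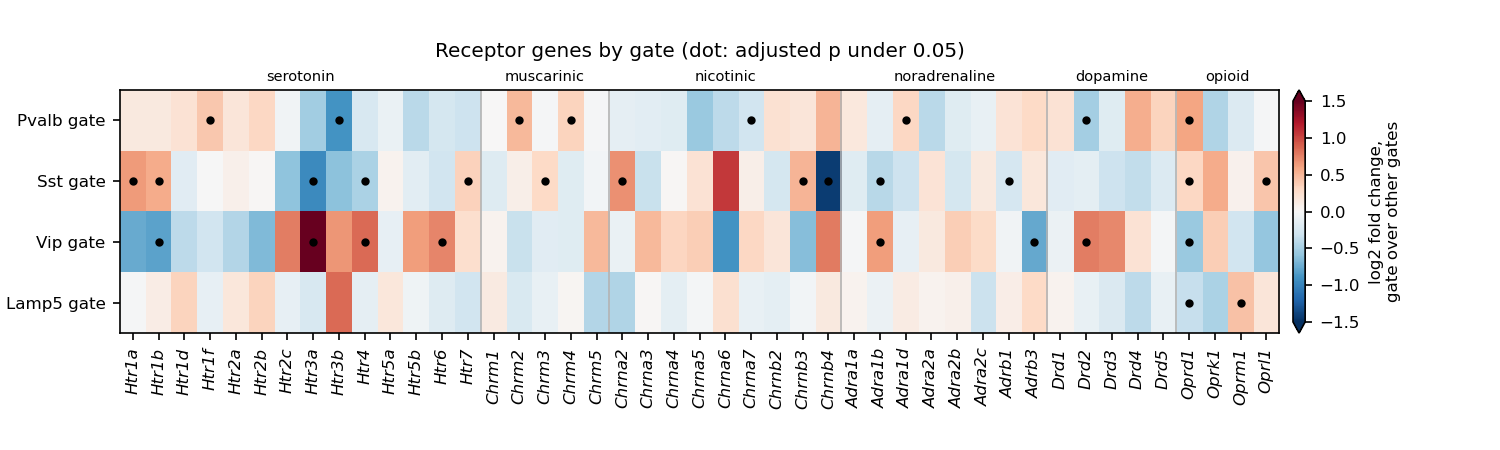
Log2 fold change of each gate over the mean of the other gates (colour, from -1.5 to 1.5) for the 45 receptor genes, grouped by transmitter. Dots mark the 31 calls at an adjusted p under 0.05, with Oprd1 marked in all 4 gates.

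In the Pvalb gate 5 of 45 receptor genes were higher (4.31% of all genes were) and 3 lower (2.73%), 7.04% of all genes being called in either direction. Oprd1 (chr4:132110726-132144486 in GRCm38, as for all coordinates here), a Gi-coupled receptor for enkephalins, had 135, 113, 127 and 96.9 CPM in the Pvalb gate, in the order cortex replicates 1 and 2, hippocampus replicates 1 and 2. In the same order it had 102, 123, 98.4 and 97.5 CPM in the Sst gate and 81.9, 74.6, 76.8 and 57.8 CPM in the Lamp5 gate, with 70.7 CPM in the single Vip sum. The Pvalb values were above the Lamp5 values in every library, while those of the Sst gate were higher still in cortex replicate 2 and hippocampus replicate 2. The log2 fold change of the Pvalb gate was 0.59 ± 0.07 (SE, edgeR adjusted p = 4.75e-07), with an adjusted p of 0.00364 without cortex replicate 1 and between 3.75e-11 and 0.0964 over 14 alternatives. Chrm2 (chr6:36388084-36528414), a Gi-coupled muscarinic receptor, had 72.3, 40.5, 76.8 and 68.9 CPM in the Pvalb gate, 68.2, 25.3, 62.4 and 49.4 CPM in the Sst gate, and 59.1, 24.9, 44.6 and 48.2 CPM in the Lamp5 gate. The Pvalb gate was the highest in all 4 libraries, with a log2 fold change of 0.49 ± 0.09 (edgeR adjusted p = 0.000293, 0.00233 without cortex replicate 1, 0.000205 to 0.622 over 14 alternatives).

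The other genes higher in the Pvalb gate were Htr1f, a Gi-coupled serotonin receptor (0.40 ± 0.12, higher in 3 of 4 libraries), Chrm4 (0.34 ± 0.10, 3 of 4 libraries) and Adra1d, a Gq-coupled noradrenaline receptor (0.31 ± 0.10, 4 of 4 libraries). Without cortex replicate 1 their edgeR adjusted p was 0.172, 0.628 and 0.320, and over the alternatives it ranged from 0.0034 to 0.912. Htr3b was lower (-0.89 ± 0.27), with 1.57, 8.15 and 7.65 CPM in the 3 libraries where it had cut sites, against 4.91, 16.5 and 19.1 CPM in the Lamp5 gate. Drd2 (-0.50 ± 0.14, lower in 3 of 4 libraries) and Chrna7, the subunit of a nicotinic receptor highly permeable to calcium (-0.28 ± 0.09, 4 of 4 libraries), were lower too. None of these 3 was called without cortex replicate 1 (edgeR adjusted p = 0.205, 0.891 and 0.679) or without the Vip gate (0.0555, 0.249 and 0.156), within a range of 0.0065 to 1 over their alternatives. Within 2 kb of the gene start alone the value of Chrna7 turned to 0.29, and without glia-leaning nuclei those of Htr3b and Drd2 to 0.024 and 0.060. The glia-leaning rule, given in the last section, removed 80.6% to 84.9% of nuclei and does not show that they were glia. Without hippocampus replicate 1 Oprd1 and Chrm2 were again the 2 genes still called.

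In the Sst gate 8 of 45 receptor genes were higher (5.17% of all genes) and 5 lower (5.03%), 10.2% of all genes being called in either direction. Of the nicotinic subunits, Chrna2 (chr14:66135039-66152948), known as a marker of a class of Sst interneurons, had 22.6, 6.91, 26.2 and 14.6 CPM in the Sst gate, 13.4, 6.64, 17.3 and 9.72 CPM in the Pvalb gate, and 12.2, 2.07, 13.4 and 9.90 CPM in the Lamp5 gate. The Sst gate was the highest of these 3 gates in each library, with a log2 fold change of 0.68 ± 0.17 (edgeR adjusted p = 0.00405), although in cortex replicate 2 only 12 cut sites stood behind the Sst value. Within 2 kb of the gene start alone the value of Chrna2 turned to -1.46. Chrnb4 (chr9:55028154-55048779), a beta subunit better known from the habenula and ganglia, had 3.73, 1.15, 8.92 and 3.77 CPM in the Sst gate against 13.2, 6.34, 14.5 and 10.7 CPM in the Pvalb gate and 10.5, 12.4, 13.8 and 5.40 CPM in the Lamp5 gate. It was lowest in the Sst gate in all 4 libraries (log2 fold change -1.43 ± 0.26, edgeR adjusted p = 0.000123), although the Sst values rested on 66, 2, 32 and 8 cut sites. Without cortex replicate 1 the edgeR adjusted p was 0.129 for Chrna2 and 0.0923 for Chrnb4, and over 14 alternatives it ranged from 0.00168 to 1 and from 9.15e-05 to 1. Chrnb3, a further nicotinic subunit, was higher in the Sst gate (0.51 ± 0.15, 4 of 4 libraries).

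Among the serotonin receptors, Htr1a had 43.4, 38.0, 22.9 and 27.8 CPM in the Sst gate, 33.3, 29.0, 19.8 and 19.4 CPM in the Pvalb gate, and 31.5, 13.5, 13.8 and 28.1 CPM in the Lamp5 gate. Its log2 fold change was 0.63 ± 0.14 (edgeR adjusted p = 0.00147, 0.251 without cortex replicate 1, 0.000661 to 0.703 over 14 alternatives). Htr7 had 44.8, 15.5, 55.7 and 80.1 CPM in the Sst gate, 39.2, 9.66, 39.8 and 42.7 CPM in the Pvalb gate, and 35.5, 17.6, 36.0 and 52.0 CPM in the Lamp5 gate. The Sst gate was above the Pvalb gate in every library and below the Lamp5 gate in cortex replicate 2 alone, and in cortex replicate 1 it was below the Vip gate (47.4 CPM), with a log2 fold change of 0.35 ± 0.11 (edgeR adjusted p = 0.0329), which became 0.62 without cortex replicate 1 (edgeR adjusted p = 0.00576, 1.98e-05 to 0.501 over 14 alternatives). The call of Htr7 was lost without hippocampus replicate 1 (edgeR adjusted p = 0.136) and hippocampus replicate 2 (0.222). Htr1b was higher as well (0.56 ± 0.13, 4 of 4 libraries). Htr3a (-0.96 ± 0.23, lower in 2 of 4 libraries) and Htr4, a Gs-coupled receptor (-0.47 ± 0.11, 3 of 4 libraries), were lower against a mean that holds the single Vip sum, and without that sum their edgeR adjusted p was 0.357 and 0.240, within 0.00121 to 0.994 over their alternatives. Without glia-leaning nuclei the values of Htr1b, Htr3a and Htr4 turned to -0.19, 0.026 and 0.12.

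The remaining calls of the Sst gate were Chrm3, a Gq-coupled muscarinic receptor (0.30 ± 0.07), Oprl1 (0.41 ± 0.12) and Oprd1 (0.31 ± 0.08), which were higher, and Adra1b, a Gq-coupled noradrenaline receptor (-0.41 ± 0.09), and Adrb1 (-0.26 ± 0.08), which were lower. Chrm3 and Adrb1 were still called without the Vip gate (edgeR adjusted p = 0.00439 and 0.0111) and the others were not (0.110 to 0.290). Without cortex replicate 1 none of the calls of this gate but that of Htr7 remained.

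The Vip gate rests on 125 nuclei of cortex replicate 1, and its test assumes that the single sum varies like the other sums. There 5 of 45 receptor genes were higher (2.75% of all genes) and 3 lower (1.96%), 4.71% of all genes being called in either direction. Htr3a (chr9:48899213-48911099), a subunit of the serotonin-gated channel and a marker of interneurons from the caudal eminence, had 37.6 CPM in the Vip gate, 15.9 in the Lamp5 gate, 11.1 in the Pvalb gate and 8.36 in the Sst gate of that library (log2 fold change 1.72 ± 0.29, edgeR adjusted p = 0.000116, 3.95e-05 to 0.332 over 11 alternatives). In the other libraries Htr3a stood between 4.24 and 13.5 CPM in all gates. Htr4 had 80.7 CPM in the Vip gate and 39.5 to 50.8 CPM in the other gates of the library (0.85 ± 0.15). Drd2 had 29.8 CPM against 13.2 to 20.4 (0.77 ± 0.22), Htr6, a Gs-coupled serotonin receptor, 32.6 CPM against 18.6 to 20.999 (0.74 ± 0.22), and Adra1b 153 CPM against 87.2 to 115 (0.63 ± 0.13). For all 5 the Vip value was the highest of the 4 gates. Htr1b was lower, with 21.8 CPM against 36.4 to 38.9 (-0.81 ± 0.21), as were Adrb3, with 13.9 CPM against 22.7 to 24.5 (-0.77 ± 0.24), and Oprd1 (-0.56 ± 0.13). With peaks within 2 kb of the gene start alone, 2 of 45 were called. Astrocyte markers summed to 305 CPM in the Vip gate, against 208 to 260 CPM in the other gates, with 2 of 7 tested markers higher (Aldh1l1 and Fgfr3), and their part in these values was not tested.

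In the Lamp5 gate 1 of 45 receptor genes was higher (0.746% of all genes) and 1 lower (0.326%), 1.07% of all genes being called in either direction. Both are opioid receptors. Oprm1 (chr10:6758506-7038198), the Gi-coupled mu opioid receptor and target of morphine, had 87.4, 95.4, 149 and 111 CPM in the Lamp5 gate, 54.7, 61.0, 118 and 86.2 CPM in the Pvalb gate, and 81.6, 74.8, 108 and 85.2 CPM in the Sst gate. The Lamp5 gate was the highest in every library (log2 fold change 0.44 ± 0.08, edgeR adjusted p = 0.00217, 0.00302 without cortex replicate 1, 0.000224 to 0.250 over 13 alternatives). Between 25.6% and 47.9% of the Oprm1 cut sites lay in peaks shared with the window of another gene. Oprd1 was lower (-0.34 ± 0.08, 4 of 4 libraries, edgeR adjusted p = 0.0161, 1.34e-05 without cortex replicate 1, 6.25e-07 to 0.659 over 14 alternatives), and with the exclusive gate, which requires 0 cut sites in the other markers, its value became positive (0.15). Its call was lost without hippocampus replicate 1 (edgeR adjusted p = 0.0803) and hippocampus replicate 2 (0.169).

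**Figure D3:**
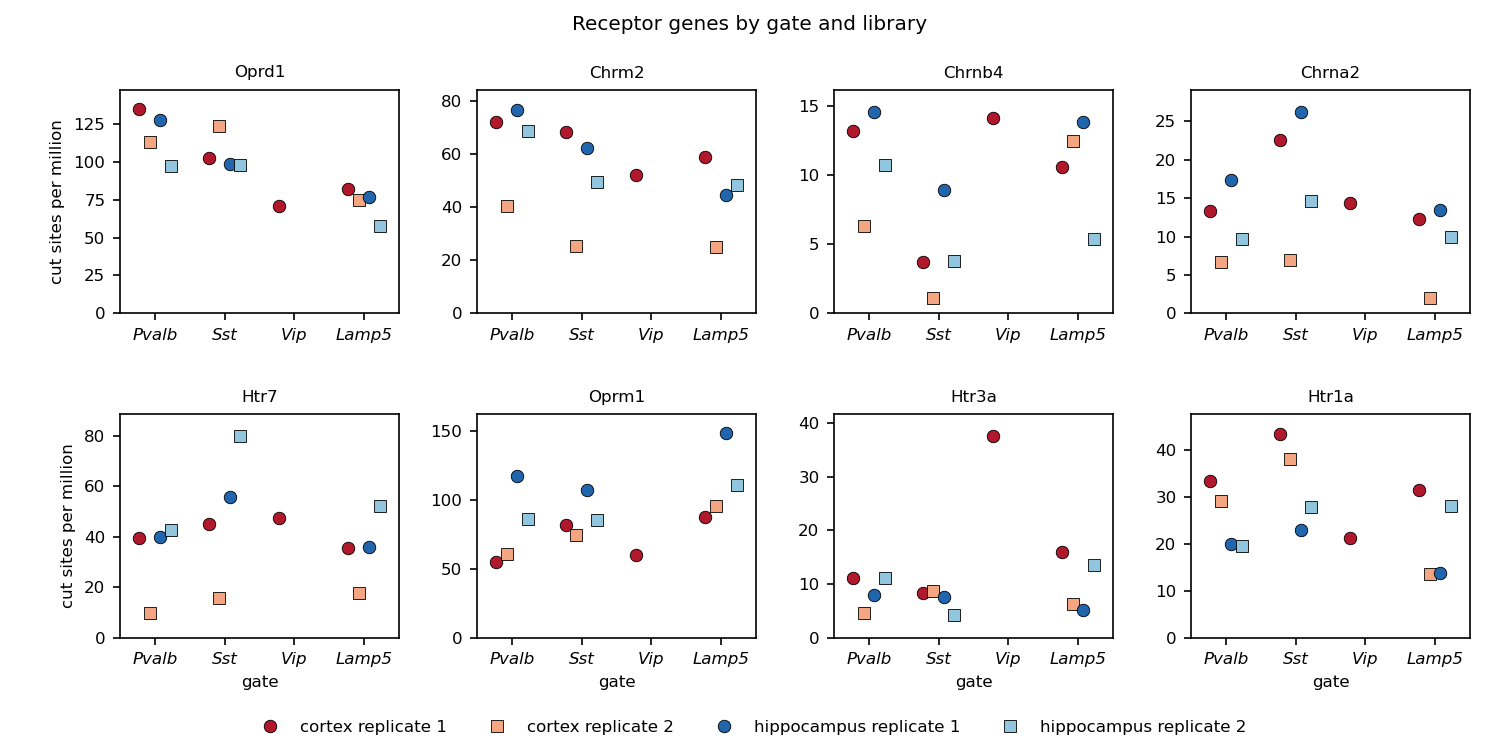
CPM (y axis) of 8 receptor genes by gate (x axis), 1 point per library, with the Vip gate in cortex replicate 1 alone. Oprd1 is lowest in the Vip and Lamp5 gates, Chrnb4 in the Sst gate, and Oprm1 is highest in the Lamp5 gate of each library.

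The start of Oprd1 lay in a peak of every library, and its promoter is printed from RefSeq (GRCm38.p6) because Oprd1 was the gene called in all gates. The 250 bases before the start were 80.0% G and C. Capitals would mark TAATTA, the core of homeodomain sites, TGACGTCA, the cyclic AMP response element, or TTCAGCACC, the left part of the RE1 element bound by REST, searched on both strands, and none is in this window.
Oprd1 promoter, chr4:132144487-132144736, minus strand: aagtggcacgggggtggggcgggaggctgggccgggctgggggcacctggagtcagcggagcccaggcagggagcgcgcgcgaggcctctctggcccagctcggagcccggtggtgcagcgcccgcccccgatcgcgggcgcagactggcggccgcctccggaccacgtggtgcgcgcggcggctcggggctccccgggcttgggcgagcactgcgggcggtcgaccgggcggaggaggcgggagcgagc
A promoter was matched for 34 of 45 receptor genes, in 43 windows. TAATTA was in the windows of 2 genes, Htr2a and Chrm5, against 4.84% of all promoters, and TGACGTCA and TTCAGCACC were in none, against 1.55% and 0.301%.

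The elements behind the gene values were examined in 77 regions that lie in the windows of receptor genes and hold a peak of every library. Of these, 23 held the gene start, 41 lay in introns, 10 overlapped a coding exon, 2 an untranslated exon and 1 was upstream. In the Pvalb gate 12 of 77 were higher and 4 lower (8.5% and 5.51% of 46697 regions), in the Sst gate 13 and 11 (11.4% and 11.3%), in the Vip gate 5 and 7 (6.55% and 4.18%) and in the Lamp5 gate 4 and 1 (2.49% and 0.707%). Up to 2 called regions per gate with the largest positive fold were taken, which gave 6 intronic elements. Of these, 5 are printed, as the central 300 bases on the plus strand of GRCm38.p6, since the values by gate below are theirs. The other, a second Adra1a element, was left out after its values were seen, because it was at 0 in the single Vip sum. Capitals mark TAATTA, which is in 6.33% of all regions over the same length and in 2 of these 77.
Htr1f intron, chr16:65022377-65022676, plus strand: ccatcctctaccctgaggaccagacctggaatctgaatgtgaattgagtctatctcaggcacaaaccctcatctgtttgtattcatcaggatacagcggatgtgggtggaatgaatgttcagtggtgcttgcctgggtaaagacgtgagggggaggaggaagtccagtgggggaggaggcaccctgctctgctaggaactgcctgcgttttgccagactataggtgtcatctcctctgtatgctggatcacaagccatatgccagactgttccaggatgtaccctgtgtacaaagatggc
Oprm1 intron, chr10:6909817-6910116, plus strand: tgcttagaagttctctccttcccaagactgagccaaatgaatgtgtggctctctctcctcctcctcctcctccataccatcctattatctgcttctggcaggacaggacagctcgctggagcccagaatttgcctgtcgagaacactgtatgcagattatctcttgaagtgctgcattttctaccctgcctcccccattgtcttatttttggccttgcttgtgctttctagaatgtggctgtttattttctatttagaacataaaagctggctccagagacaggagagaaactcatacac
Htr3a intron, chr9:48903832-48904131, plus strand: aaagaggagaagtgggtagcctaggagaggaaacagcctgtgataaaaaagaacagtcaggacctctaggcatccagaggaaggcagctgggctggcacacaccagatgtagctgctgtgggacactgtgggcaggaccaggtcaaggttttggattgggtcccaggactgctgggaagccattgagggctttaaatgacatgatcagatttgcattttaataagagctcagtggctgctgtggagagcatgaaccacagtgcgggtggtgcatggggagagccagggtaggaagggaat
Adra1a intron, chr14:66668656-66668955, plus strand: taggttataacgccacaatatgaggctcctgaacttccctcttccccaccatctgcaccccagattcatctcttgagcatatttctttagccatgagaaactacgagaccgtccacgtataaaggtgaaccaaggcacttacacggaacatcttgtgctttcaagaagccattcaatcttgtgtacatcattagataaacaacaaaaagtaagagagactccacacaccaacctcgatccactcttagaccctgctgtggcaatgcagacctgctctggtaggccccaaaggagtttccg
Chrm3 intron, chr13:9997765-9998064, plus strand: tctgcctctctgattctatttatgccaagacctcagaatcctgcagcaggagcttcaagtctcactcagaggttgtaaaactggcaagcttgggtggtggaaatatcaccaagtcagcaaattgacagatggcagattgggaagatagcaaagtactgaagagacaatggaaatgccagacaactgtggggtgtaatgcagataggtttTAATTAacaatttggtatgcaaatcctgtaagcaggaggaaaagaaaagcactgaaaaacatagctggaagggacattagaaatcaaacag
The Chrm3 element holds TAATTA once and the others hold none of the 3 motifs.

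The Htr1f element (chr16:65022232-65022823) lies 83327 bp from the gene start. It had 12.6, 18.4, 11.98 and 7.06 CPM in the Sst gate, 3.04, 7.55, 6.19 and 3.83 CPM in the Pvalb gate, and 5.95, 12.4, 4.94 and 2.52 CPM in the Lamp5 gate. The Sst gate was the highest in every library (log2 fold change 1.55 ± 0.27, edgeR adjusted p = 1.85e-05, 0.0127 without cortex replicate 1, 5.26e-06 to 0.0127 over the alternatives), whereas the sum over the whole Htr1f window was called in the Pvalb gate. The Oprm1 element (chr10:6909681-6910253) lies 151461 bp from the start and also in the window of Ipcef1, a gene on the other strand. It had 6.84, 6.22, 14.8 and 9.90 CPM in the Lamp5 gate, 1.10, 1.21, 5.11 and 2.07 CPM in the Pvalb gate, and 1.30, 2.88, 3.07 and 1.41 CPM in the Sst gate. Values of the Lamp5 gate were above those of both other gates in all 4 libraries, with a log2 fold change of 2.03 ± 0.30 (edgeR adjusted p = 2.03e-05, 1.52e-05 without cortex replicate 1, 1.06e-07 to 0.000479 over the alternatives).

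The Htr3a element (chr9:48903776-48904188) had 12.9 CPM in the Vip gate of cortex replicate 1, against 0.903 to 3.86 CPM in its other gates and 0 to 3.35 CPM in the other libraries (log2 fold change 2.87 ± 0.52). In cortex replicate 2 the peak covered only 33 bp of this element. The Chrm3 element (chr13:9997599-9998231) had 11.6 CPM in the Vip gate against 4.12 to 4.83 CPM in the other gates of the library, but 5.90 to 10.1 CPM in the gates of the hippocampus libraries, which have no Vip gate (1.40 ± 0.39). The Adra1a element (chr14:66668065-66669547) had 15.8, 14.5, 17.1 and 14.3 CPM in the Pvalb gate, 6.72, 5.76, 15.6 and 8.48 CPM in the Sst gate, and 12.6, 8.29, 13.8 and 8.996 CPM in the Lamp5 gate. Adra1a encodes a Gq-coupled noradrenaline receptor, and the Pvalb gate was the highest in all 4 libraries (0.99 ± 0.21, edgeR adjusted p = 0.000742, 0.133 without cortex replicate 1, 1.15e-05 to 0.133 over the alternatives). The second Adra1a element (chr14:66753723-66755499) passed for the Pvalb, Sst and Lamp5 gates with log2 fold changes of 2.26 ± 2.61, 2.65 ± 2.10 and 2.35 ± 2.50, above those of most printed elements. These folds were fitted against a mean that holds a sum at 0, so that they depend on the prior count, and without the Vip gate they were -0.19, 0.27 and -0.08 (edgeR adjusted p = 0.694, 0.529 and 0.904).

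**Figure D4:**
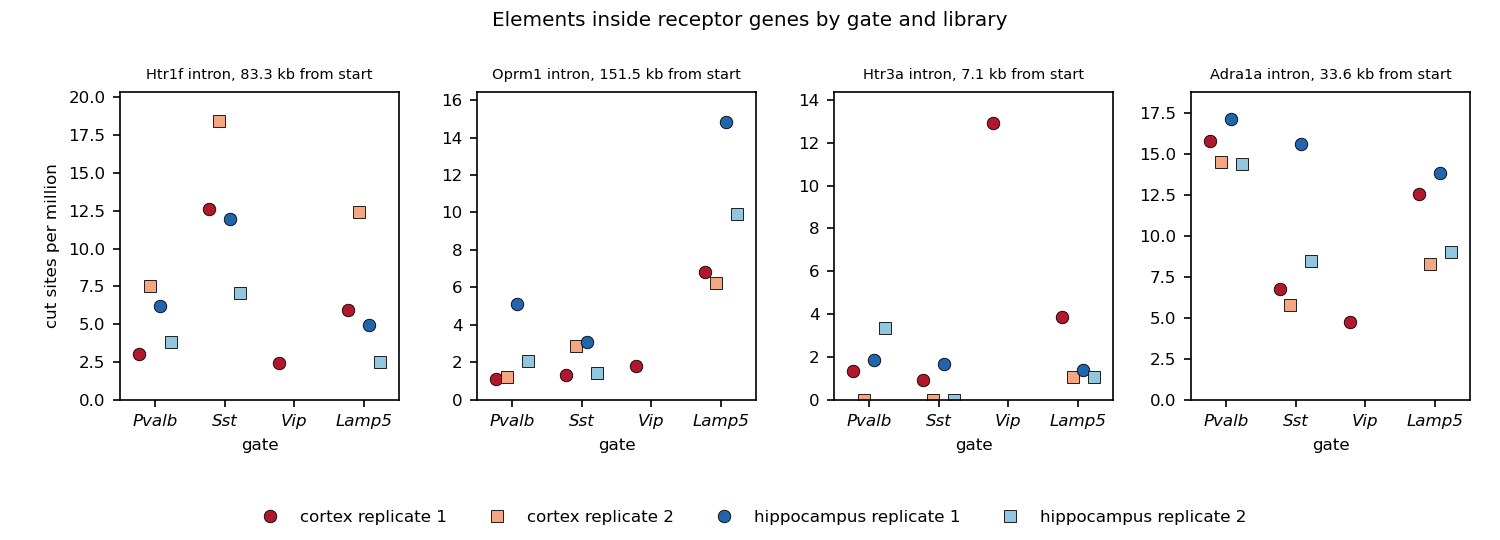
CPM (y axis) of 4 intronic elements by gate (x axis), 1 point per library. The Htr1f element is highest in the Sst gate and the Oprm1 element in the Lamp5 gate of each library, and the Htr3a element stands out in the single Vip sum.

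Whether a gate differed from the others to another extent in hippocampus than in cortex was tested over the 3 gates found in all libraries. In the Sst gate 1 of 45 receptor genes was called (0.162% of all genes), in the Pvalb gate 0 (0.0539%) and in the Lamp5 gate 0 (0%), with an unadjusted p under 0.05 for 8 receptor genes in the Sst gate (7.45% of all genes), 5 in the Pvalb gate (4.75%) and 5 in the Lamp5 gate (4.79%). The gene was Adra1a, with 138 and 81.7 CPM in the Sst gate of the cortex libraries and 135 and 120 CPM in hippocampus. In cortex the Sst gate was below the Pvalb gate (193 and 123 CPM) and the Lamp5 gate (183 and 116 CPM), and in hippocampus, where these had 130 and 123 CPM and 132 and 108 CPM, it was above both in replicate 1 and between them in replicate 2. The difference was 0.52 ± 0.12 on the log2 scale (edgeR adjusted p = 0.0352), and the adjusted p was 0.120, 0.00849, 0.598 and 0.803 when cortex replicates 1 and 2 and hippocampus replicates 1 and 2 were left out in turn.

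Genes that act on these receptors or downstream of them were counted from lists. Between cortex and hippocampus none of these lists had a called gene. For the gates, the counts stand beside shares of all genes higher and lower of 4.31% and 2.73% (Pvalb), 5.17% and 5.03% (Sst), 2.75% and 1.96% (Vip), and 0.746% and 0.326% (Lamp5). The RGS proteins shorten G protein signals, and of 16 genes 0 were higher and 5 lower in the Pvalb gate, 2 higher and 4 lower in the Sst gate, and 4 higher and 1 lower in the Vip gate. Examples are Rgs6 (-0.43 ± 0.11 in the Pvalb gate), Rgs14 (-2.06 ± 0.39 in the Sst gate) and again Rgs14 (3.18 ± 0.46 in the Vip gate). The Sst value of Rgs14 was fitted against a mean that holds the single Vip sum, so it is not independent of the Vip value. Of 5 chaperones and modulators of nicotinic receptors, 2 were higher in the Pvalb gate, where Lynx1, a brake on nicotinic receptors, had 0.38 ± 0.07, 2 were higher in the Sst gate, where Lypd6 had 0.62 ± 0.07, and Lypd6 was lower in the Vip gate (-0.65 ± 0.12). Of 4 G protein gated potassium channel genes, Kcnj9 was higher in the Pvalb gate (0.21 ± 0.06) and Kcnj6 (-0.37 ± 0.06) and Kcnj9 (-0.21 ± 0.06) were lower in the Sst gate.

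Of 8 adenylyl cyclases, Adcy2 (0.76 ± 0.14) and Adcy1 (0.22 ± 0.05) were higher in the Sst gate, Adcy3 was higher in the Pvalb gate (0.26 ± 0.07) and Adcy1 was lower in the Vip gate (-0.34 ± 0.09). Of 4 phospholipase C beta genes, Plcb2 (0.62 ± 0.15) and Plcb1 (0.17 ± 0.06) were higher in the Sst gate, Plcb4 was higher in the Lamp5 gate (0.35 ± 0.06), and Plcb2 (-1.30 ± 0.26) and Plcb4 (-0.35 ± 0.11) were lower in the Vip gate. Of 10 G protein alpha subunits Gna14 was called, in the Sst gate (0.36 ± 0.10), and of 7 receptor kinases and arrestins Grk3 was called, higher in the Pvalb gate (0.30 ± 0.05) and lower in the Vip gate (-0.42 ± 0.10). Of 4 opioid peptide precursors Pnoc, which encodes nociceptin, was higher in the Vip gate (0.64 ± 0.13) and lower in the Sst gate (-0.48 ± 0.08) and the Pvalb gate (-0.32 ± 0.08). Of 10 tested genes of transmitter synthesis and transport, Slc18a3 (2.23 ± 0.41) and Chat (1.74 ± 0.31), which load and make acetylcholine, were among the 3 that were higher in the Vip gate, and Chat (-0.72 ± 0.23) and Ddc (-0.50 ± 0.12) among the 3 that were lower in the Sst gate. Slc18a3 lies within the Chat gene. Of 5 tested subunits of the muscle and cochlear nicotinic receptors 0 were called in any gate. The values of the Vip gate come from 1 library throughout. For all these lists, values of the Pvalb, Sst and Lamp5 gates were fitted against a mean that holds this single Vip sum. List calls without that sum or without cortex replicate 1 are not given. The calls of these lists are therefore not shown to hold without that library.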

How the data were processed

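Single-nucleus ATAC-seq was analysed from 4 libraries. The deposited counts are cut sites per peak and nucleus, made by the authors with Cell Ranger ATAC 1.2.0 on GRCm38 (mm10), per the submitters' processing notes, with peaks called in each library. The paper supplied with the series describes other experiments, so no method was taken from it. Counts in peaks that overlap a GENCODE M21 protein-coding gene or the 2 kb upstream were summed per library, or per library and gate (at least 30 nuclei), and scaled to the total in peaks. Genes and regions were tested by edgeR's quasi-likelihood test (edgeR 4.0.16, R 4.3.3), two-sided, with filterByExpr and Benjamini-Hochberg adjustment over all features, called at 0.05; DESeq2 1.42.0 was an alternative. Doublets were neither called nor removed here, and their treatment upstream is not given in the sources used here, so a gate can hold barcodes of more than 1 nucleus. Gates had library as a block. The contrast weights were planned for 16 sums, of which 13 reached 30 nuclei, and the test of gate by brain region used 3 gates. Peaks overlapping by 1 bp were merged into regions, and 46698 held a peak of every library. Scripts (Python 3.11.15) were tested on simulated data. There the test between brain regions recovered 12 of 67 genes changed 2-fold and 56 of 67 changed 4-fold. It also called 23 unchanged genes, while 20 genes were called in the real data. For genes changed 1.5-fold, the gate test recovered 84 of 100 in the Sst gate and 46 of 99 in the Vip gate.

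Values are given in full for the 2 densest genes of each transmitter group, the 3 smallest p in each direction between brain regions, up to 4 called genes per gate and direction, up to 2 regions per gate with the largest positive fold, and up to 2 genes per signalling list. Further genes that were called are named with shorter values. The receptor genes and all lists were chosen with earlier results of these data known. Sequences are from RefSeq and GRCm38.p6. Cut sites from 1 nucleus are not independent molecules, and no intervals were computed from counts.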

Additional observations from a re-analysis of the deposited data

Results flagged for a closer look

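Adra1a differed between cortex and hippocampus to another extent in the Sst gate than in the Pvalb and Lamp5 gates, by 0.52 on the log2 scale (SE 0.12, edgeR adjusted p = 0.0352), the 1 receptor gene for which the test of this difference passed. The call was lost without cortex replicate 1, hippocampus replicate 1 or hippocampus replicate 2 (edgeR adjusted p = 0.120, 0.598 and 0.803) and kept without cortex replicate 2 (0.00849), and neither DESeq2 nor TMM scaling called it.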

How the results depend on the processing

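Between brain regions the count of 0 receptor genes became 4 without cortex replicate 1 (0 to 4 over the libraries left out in turn) and stayed at 0 in the other alternatives. The count over all genes moved from 20 to 153 with DESeq2, 1 with TMM, 0 with the replicate block, 0 with regions covered to at least 50% in every library, 6 within 2 kb of the start, 4 without glia-leaning nuclei and 11 without oligodendrocyte-leaning nuclei, and from 6 to 725 with libraries left out. Same-numbered libraries are known from the labels to share only a number. The correlation of their deviations from the group means was 0.175 over 16326 genes, which cannot show whether they were paired. The replicate block called 0 receptor genes.

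For receptor genes, the Pvalb gate (8 calls) gave 3 with DESeq2, 3 within 2 kb of the start, 0 without glia-leaning nuclei and 2 to 9 with libraries left out. The Sst gate (13) gave 5 within 2 kb of the start, 0 without glia-leaning nuclei, 7 without the Vip gate and 1 to 14 with libraries left out. The Vip gate (8) gave 5 with DESeq2, 13 with the exclusive gate, 2 within 2 kb of the start and 5 to 10 with libraries left out. The Lamp5 gate (2) gave 1 with the exclusive gate, 0 within 2 kb of the start, 1 without glia-leaning nuclei, 4 without the Vip gate and 1 to 4 with libraries left out. For regions, the counts with libraries left out were 5 to 13 (Pvalb, 16), 8 to 24 (Sst, 24), 9 to 14 (Vip, 12) and 1 to 4 (Lamp5, 5), the exclusive Vip gate gave 19, and the Lamp5 gate gave 2 with DESeq2 and 8 without the Vip gate. The 1 call of gate by brain region, in the Sst gate, became 0 with DESeq2, 0 with TMM and 0 to 2 with libraries left out.

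Without glia-leaning nuclei the log2 fold change turned to 0.024 for Htr3b and 0.060 for Drd2 in the Pvalb gate, and to -0.19 for Htr1b, 0.026 for Htr3a and 0.12 for Htr4 in the Sst gate. A nucleus was glia-leaning when the highest of its astrocyte, oligodendrocyte lineage, microglia and endothelium ratios exceeded its pan-GABA ratio. Each ratio was the list's share of a nucleus's cut sites over the same share in its library. The highest of several ratios is set against a single one, so a flagged nucleus is not shown to be glia. That rule removed 80.6% to 84.9% of nuclei. Within 2 kb of the start it turned to 0.29 for Chrna7 (Pvalb gate) and -1.46 for Chrna2 (Sst gate), and with the exclusive gate to 0.15 for Oprd1 (Lamp5 gate). The cause was not tested. Over the genes named in the gates, 223 values kept direction and call, 80 kept direction and lost the call and 8 reversed. The alternatives without the Vip gate and without oligodendrocyte-leaning nuclei were chosen after seeing the data. Gates thinned to 3000 cut sites left fewer than 3 gates and were not run. In cortex replicate 2, the shallowest library, 35 of 45 receptor genes had cut sites, and the part of depth in this was not tested.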
